A study of Homo sapiens with 9 samples.

Results

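The mRNAs of the cytosolic ribosomal proteins were examined in a SLAM-Seq experiment, which reads newly made RNA as T-to-C changes. The genes were taken by symbol (RPL and RPS followed by a number, with RPLP0, RPLP1, RPLP2 and RPSA), and 84 genes of the table matched. They were then chosen by a measured level, a mean of 5 CPM or more over the 3 libraries without 4sU, which 70 of the 84 reached, among 25801 genes in all and 8540 genes at or above that level. The level without 4sU therefore chose the members, and it is given here as a description with no test. Of the 70 members, 45 encode proteins of the large (60S) subunit or their paralogs and 25 proteins of the small (40S) subunit or a paralog. Each gene was represented by its 3′ interval with most reads, and the table gives a length but no coordinates for these intervals. The members' genes lie on 20 chromosomes in the GENCODE annotation of GRCh37.

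A ribosome holds 1 copy of nearly every ribosomal protein, so a growing cell keeps these many mRNAs at high levels together. Most of them carry a 5′ terminal oligopyrimidine (TOP) motif, a C at the cap followed by an unbroken run of pyrimidines, through which the mTOR pathway sets their translation. Ribosomal protein mRNAs are known as abundant and long-lived messages.

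All libraries came from MCF10A, an immortal but non-tumorigenic line of human breast epithelium, in which JUN had been knocked out and replaced by a JUN fused to an auxin-inducible degron (AID) together with the plant receptor TIR1. These alleles were shared by every group. The "no 4sU Ctrl" libraries were not labelled, the "DMSO 4sU" libraries came from cells given the solvent DMSO and then 100 µM 4-thiouridine (4sU) for 1 h, and the "IAA 4sU" libraries from cells given 100 µM of the auxin indole-3-acetic acid (IAA) for 1 h, which degrades JUN-AID protein, and then the same pulse. Each group has 3 samples by its labels, which the study describes as biological replicates. The labels do not say whether these were separate cultures, and p-values measure the spread between these samples. The 3 IAA columns held identical values in all 56868 rows and were counted as 1 library, so nothing that involves IAA has a test.

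The 7 distinct libraries held between 18997637 and 24014195 reads. The members were covered by at least 71 reads in each library and by up to 49179, and 5 members fell under 200 reads in some library. All 14 epithelial markers listed for these cells reached 5 CPM, and of 14 markers of other cell types only VIM did (COL1A2, VWF, CDH5, PTPRC, CD3E and DES were listed at 0 in every library). The members' level set no 4sU replicate 1 and DMSO 4sU replicate 1 apart from the others of their groups. The counts of all members called are given with and without replicate 1 below. Fitted differences of single genes are mostly given over all replicates only.

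Most members with a promoter window had the TOP start. RefSeq promoter windows (GRCh38.p14, from 250 bases before to 50 after the listed start) were available for 58 of the 70 members. A C at the listed start followed by at least 4 pyrimidines, read on the gene's own strand, was found in 42 of them (72.4%), against 5.14% of all 27305 genes with a window and 8.09% of the 7106 genes at 5 CPM or more with a window. The run of pyrimidines had a median length of 8 bases and was at most 19. The letters TTCCG, a core of ETS factor motifs, searched on both strands of the whole window, were present in 89.7% of the members' windows, in 39.0% of all windows' genes and in 63.7% of those at 5 CPM or more. Windows from 10 bases before the start to 20 after it are shown for abundant members, for strongly labelled members and for paralogs, with the run in capitals where it was found.

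RPS24, chr10:78033853-78033882, plus strand: aatcgtggttCTCTTTTCCTCCTTggctgt
RPL26, chr17:8383174-8383203, minus strand: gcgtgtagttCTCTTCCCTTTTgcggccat
RPL12, chr9:127451387-127451416, minus strand: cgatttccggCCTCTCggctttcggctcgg
RPL22L1, chr3:170870176-170870205, minus strand: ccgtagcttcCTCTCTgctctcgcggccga
RPL19, chr17:39200273-39200302, plus strand: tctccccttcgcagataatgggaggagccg
RPL10A, chr6:35468391-35468420, plus strand: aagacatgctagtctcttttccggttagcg
RPS15, chr19:1438386-1438415, plus strand: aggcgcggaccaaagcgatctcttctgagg
RPS28, chr19:8321486-8321515, plus strand: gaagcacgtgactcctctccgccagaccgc
RPS29, chr14:49598691-49598720, minus strand: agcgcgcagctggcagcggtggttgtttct
RPL7L1, chr6:42879606-42879635, plus strand: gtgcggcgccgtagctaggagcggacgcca
RPL26L1, chr5:172958719-172958748, plus strand: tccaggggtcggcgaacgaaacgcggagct
RPS27L, chr15:63157458-63157487, minus strand: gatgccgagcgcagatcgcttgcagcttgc

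RPS24 and RPL26, both abundant, began with runs of 14 and 12 pyrimidines, and RPL12 and the paralog RPL22L1 with 6. RPL19, RPL10A, RPS15, RPS28, RPS29, RPL7L1, RPL26L1 and RPS27L had no such run at the listed start, which says only that these letters are not there. The 42 members with the start had a median background-subtracted conversion rate (defined in the next paragraph) of 0.0830% and the 16 without it 0.0788%, a description with no test.

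The conversion rate is the share of T positions in an interval that were read as C. It rose with 4sU in 37 of the 70 members and fell in none (limma on log2(rate + 0.0005), DMSO 4sU against no 4sU, adjusted p under 0.05), while 58.3% of all 8540 genes tested rose. The share of members was 52.9%. With replicate 1, 2 or 3 left out of both groups, 12, 15 and 19 members rose (17.1%, 21.4% and 27.1%), beside 33.1%, 39.5% and 38.8% of all genes, and with the replicate number as a block 27 rose (38.6%), beside 52.9% of all genes. All 70 members had a higher mean rate with 4sU than without. In 57 members the 3 DMSO 4sU libraries all lay above the 3 libraries without 4sU, beside 68.3% of all genes. By subunit, 24 of 45 large-subunit and 13 of 25 small-subunit members rose. The median fitted difference over the members was 0.84 on the log2(rate + 0.0005) scale and that of all genes 1.18.

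Ribosomal protein mRNAs had lower rates than the median gene, and their median was nearer to that of abundant genes. The members' median rate was 0.0465%, 0.0493% and 0.0547% in the 3 libraries without 4sU and 0.169%, 0.143% and 0.129% in the DMSO 4sU libraries. Over all genes tested the medians were 0.0570%, 0.0569% and 0.0593% without 4sU and 0.250%, 0.189% and 0.186% with it. The labelled libraries of the members thus stood clear of the unlabelled ones and below the median of all genes in each labelled library. After subtraction of each gene's mean rate without 4sU, the members' median was 0.0851% ± 0.0136 (SD, n = 3) and that of all genes 0.142% ± 0.0356 (SD, n = 3). The ratio of these medians was 0.541, 0.684 and 0.595 in DMSO 4sU replicates 1, 2 and 3, and 56 of the 70 members lay below the median of all genes. The mean of these ratios, 0.607, became 0.982 against the 338 genes at 200 CPM or more. Only the reference was limited by level there, and 22 of the 70 members lay under 100 CPM. In the 985 other genes between the members' lower and upper quartile of CPM (83.9 and 527 CPM) the median was 0.0939%, and in the 34 members of that range it was 0.0803%. Of those 985 genes 65.6% rose and of the 34 members 21 did.

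Listed short-lived mRNAs, the products of immediate-early genes and the like, give the scale: all 19 tested rose, with a median background-subtracted rate of 3.09%, and DUSP1, a MAP kinase phosphatase, reached 9.53% ± 0.407 (SD, n = 3). Of 15 listed stable housekeeping mRNAs 12 rose, with a median of 0.105%, above the members' median of 0.0829% over the gene means. The 76 mitochondrial ribosomal protein genes, whose products form a separate ribosome, had a median of 0.136% and 52 rose. Translation initiation and elongation factors had a median of 0.0970% and 23 of 38 rose, and ribosome biogenesis factors, which process rRNA and assemble subunits, had 0.169% and 43 of 62 rose. Proteasome subunits had 0.0906% and 20 of 35 rose. Ribosomal protein genes whose symbols the choice did not cover rose as well: FAU, which encodes a ribosomal protein fused to a ubiquitin-like protein, had a background-subtracted rate of 0.101% ± 0.0413, RPL36AL 0.167% ± 0.0444 and the 40S scaffold RACK1 0.0581% ± 0.0200 (SD, n = 3 each).

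Among the members the label was uneven. RPL10A, a protein of the L1 stalk of the 60S subunit, had rates of 0.0404%, 0.0541% and 0.0300% without 4sU and of 0.834%, 0.832% and 0.629% with DMSO and 4sU. All labelled libraries lay far above the unlabelled ones. RPL10A rose by 3.15 ± 0.28 (SE) on the log2(rate + 0.0005) scale (limma, adjusted p = 0.000401), the largest difference of any member. Its background-subtracted rate was 0.723% ± 0.118 (SD, n = 3).

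RPS15, a protein of the 40S head, had rates of 0.00%, 0.0674% and 0.00% without 4sU and 0.530%, 0.720% and 0.240% with it. RPL12, at the base of the 60S stalk, went from 0.0630%, 0.0589% and 0.00% to 0.749%, 0.320% and 0.369%. RPS28, a small 40S protein, had 0.0377%, 0.0361% and 0.0898% without and 0.536%, 0.182% and 0.456% with 4sU. In these 3 genes the groups did not overlap but the labelled libraries spread widely among themselves, and all 3 rose (limma, adjusted p = 0.00385, 0.00455 and 0.00828). Their intervals were 38, 50 and 125 bases long and that of RPL10A 34 bases.

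**Figure D1:**
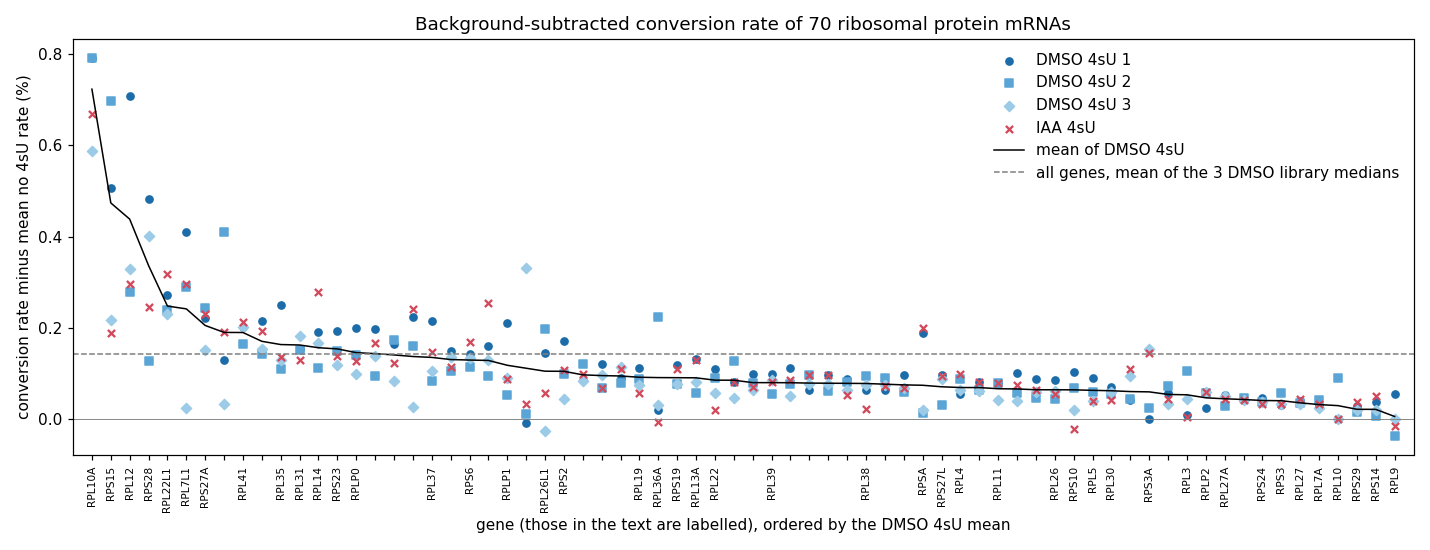
Conversion rate minus the gene's mean rate without 4sU, in percent (vertical axis), for the 70 members in the order of their DMSO 4sU mean (horizontal axis). Points are the 3 DMSO 4sU libraries and the IAA library, the line is the DMSO 4sU mean and the dashed line the mean of the 3 library medians of all genes (0.142%). The mean runs from 0.723% in RPL10A to 0.00613% in RPL9.

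The lowest rates belonged to members of both subunits. RPL9, a 60S protein, had 0.101%, 0.186% and 0.103% without 4sU and 0.184%, 0.0928% and 0.131% with it, and these groups overlapped (log2 difference 0.05 ± 0.31 SE, limma adjusted p = 0.889). RPS29, which binds zinc in the 40S head, had 0.0322%, 0.0331% and 0.0331% without and 0.0620%, 0.0485% and 0.0536% with 4sU. RPS14, whose loss underlies the 5q- syndrome, had 0.0276%, 0.0292% and 0.0304% and then 0.0672%, 0.0362% and 0.0489%. In RPS29 and RPS14 the labelled libraries all lay above the unlabelled ones, yet neither passed the test (adjusted p = 0.332 and 0.366), nor did either with a pseudocount of 0.0001. Among the alternatives run, RPS29 passed only where the rates of all its intervals were averaged. RPL7A, with a background-subtracted 0.0322% ± 0.00883 (SD, n = 3), and RPL27, with 0.0360% ± 0.00283 (SD, n = 3), did not pass either. RPL10, which joins the 60S subunit late in its assembly, was listed at a rate of 0 in 5 of the 6 libraries and at 0.0897% in DMSO 4sU replicate 2, on few reads.

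Members that guard or carry other functions were spread over this range. RPS6, the target of S6 kinase, rose from 0.0199%, 0.0168% and 0.0194% to 0.161%, 0.132% and 0.152% (limma, adjusted p = 0.00242). RPS27A, made as a fusion with ubiquitin, rose from 0.0415%, 0.0359% and 0.0335% to 0.259%, 0.280% and 0.189% (adjusted p = 0.00172). RPL13A, a 60S protein that also silences inflammatory mRNAs, rose by 0.86 ± 0.24 on the log2 scale (adjusted p = 0.0215). RPL5 and RPL11, which with 5S rRNA bind MDM2 when ribosome assembly fails, had differences of 0.61 ± 0.25 and 0.64 ± 0.23, and neither passed the test (adjusted p = 0.0719 and 0.0501). RPL11 did pass at a pseudocount of 0.0001 and with at least 200 reads on average (limma, adjusted p = 0.0490 and 0.0393). RPS3, at the mRNA entry of the 40S subunit, had 0.46 ± 0.22 (adjusted p = 0.105). It passed where the rates of all its intervals were averaged (limma, adjusted p = 0.00118).

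Of the stalk proteins, which recruit the elongation factors, RPLP0 rose from 0.0435%, 0.0764% and 0.0607% to 0.259%, 0.201% and 0.158% (limma, adjusted p = 0.00883). RPLP1 and RPLP2 did not pass the test (adjusted p = 0.176 and 0.0934), and the rates of RPLP1 overlapped between the groups. RPSA, a 40S protein also known as the laminin receptor, had 0.0910%, 0.0613% and 0.0132% without and 0.244%, 0.0688% and 0.0760% with 4sU, which overlapped as well.

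Paralogs were compared with the genes they resemble. RPL22L1 rose from 0.0454%, 0.0854% and 0.0444% to 0.331%, 0.299% and 0.290%, a background-subtracted 0.248% ± 0.0217 (SD, n = 3). RPL22 rose from 0.0541%, 0.0469% and 0.0875% to 0.172%, 0.154% and 0.119%, a background-subtracted 0.0857% ± 0.0267 (SD, n = 3). The 3 labelled libraries of RPL22L1 all lay above the 3 of RPL22. RPL22L1 also had more reads, 282 CPM ± 55.9 (SD, n = 3) without 4sU against 85.0 ± 1.02 for RPL22, on intervals of 1507 and 1655 bases. RPS27L, a p53-induced relative of RPS27, rose by 0.83 ± 0.27 on the log2 scale (limma, adjusted p = 0.0367) at 161 CPM ± 50.8 (SD, n = 3), whereas RPS27 itself was listed at 4.02 CPM and was no member. RPL26L1 had overlapping rates (adjusted p = 0.208) at 19.1 CPM ± 7.25, and RPL26 rose (adjusted p = 0.0337) at 813 CPM ± 322 (SD, n = 3). RPL7L1, a factor of 60S assembly, did not pass the test (adjusted p = 0.0857), and its parent RPL7 was listed at 4.22 CPM. RPL3L, of striated muscle, and RPL10L, of testis, had no reads without 4sU, and RPL39L had 0.914 CPM.

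The rate without 4sU was high in a few members, which were chosen after their values were seen. It was at or above 0.2% in 2 members, RPL31 and RPS19 (2.04% of all genes tested reached this). RPS19, the gene most often mutated in Diamond-Blackfan anaemia, had 0.417%, 0.402% and 0.502% without and 0.560%, 0.517% and 0.517% with 4sU, and did not pass the test (limma, adjusted p = 0.367). RPL31 had 0.385%, 0.595% and 0.634% without and 0.691%, 0.690% and 0.721% with 4sU on its 335-base interval. Another RPL31 interval of 45 bases, with nearly as many reads (451 against 473 CPM), had 0.0196%, 0.0274% and 0.0251% without and 0.108%, 0.104% and 0.112% with 4sU. The value of RPL31 thus depended on which of its intervals was read.

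Intervals of 1 gene also differed in label. RPS29 has a second interval of 1143 bases with 2.95 CPM without 4sU, beside 1248 CPM on the main interval of 98 bases. The long interval had rates of 0.0944%, 0.00% and 0.00% without and 5.92%, 2.28% and 3.80% with DMSO and 4sU, against 0.0620% or less on the main one. This gene was chosen for this comparison after its values were seen. Of the 70 members, 14 had more than 1 distinct interval, beside 20.2% of all 25801 genes.

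The members' intervals were short. Their median length was 75.5 bases (from 25 to 4069), beside 1254 bases over all genes tested, and 35 of 70 were no longer than the 75-base read against 1.52% of all genes. A short interval can hold few T positions, and the table gives no count of them. Across the 70 members the background-subtracted rate was correlated by 0.107 with interval length and by -0.284 with CPM without 4sU (Spearman), both as descriptions over genes that share their libraries. The order of the members was kept in part between labelled libraries, with Spearman correlations of 0.634 (replicates 1 and 2), 0.503 (1 and 3) and 0.360 (2 and 3). The spread between the 3 DMSO 4sU libraries, as a percent of the mean, had a median of 26.5% in the 48 members at 100 CPM or more and of 69.4% in the 22 below. At 100 CPM or more 29 of 48 rose and below it 8 of 22. No share of all genes is given at these levels, so nothing is read from these counts. Of the 985 other genes between 83.9 and 527 CPM 65.6% rose, beside 58.3% of all genes tested.

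**Figure D2:**
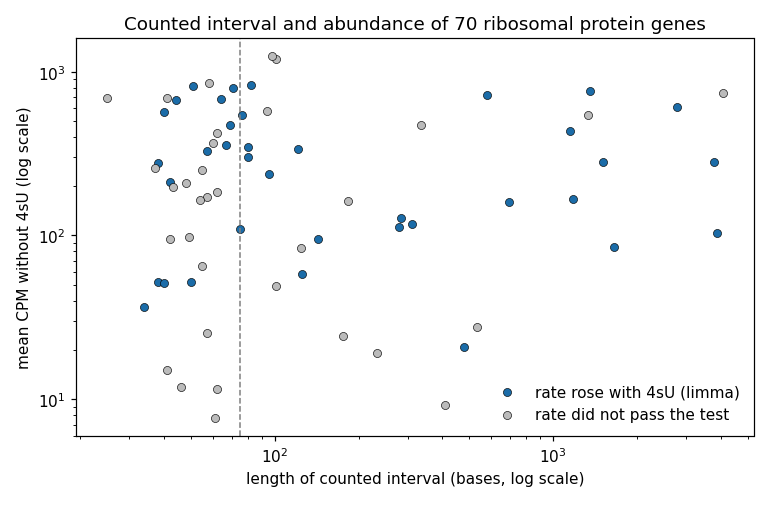
Length of the counted 3′ interval in bases (horizontal log axis) against the mean CPM without 4sU (vertical log axis) for the 70 members, coloured by whether the conversion rate rose with 4sU (37 genes) or did not pass the test (33 genes). The dashed line marks the read length of 75 bases, and 35 members lie on or left of it.

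Most members were abundant, as the choice by level implies. On the CPM scale, not divided by length because 3′ end libraries give about 1 read per mRNA, the median member had 210 CPM without 4sU. Among the highest were RPS29 with 1248 CPM ± 311, RPS24 with 1195 ± 493, RPL19 with 831 ± 235 and RPL26 with 813 ± 322 (SD, n = 3 each). Just inside the limit were RPL3, which shapes the peptidyl transferase centre, with 7.71 CPM, RPL36A with 9.24 and RPS3A with 11.6. Just outside were RPS25 with 4.80 CPM, RPL7 with 4.22 and RPS27 with 4.02. Of the 14 genes outside, 7 had under 1 CPM, among them those of the core ribosomal proteins RPL6 and RPS26. A ribosome needs both of these, so a low listing cannot be read as absence of the mRNA, and reads shared with near-identical copies elsewhere in the genome are uncertain for the whole family.

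Total mRNA of the members was compared between DMSO 4sU and no 4sU, a contrast whose unlabelled side chose the members, so nothing is read from its calls. No member passed the test in either direction (limma on log2(CPM + 1)), with 0.0% of all 11034 genes tested called higher and 1.58% called lower. At an unadjusted p under 0.05 there were 11 members, all higher, and 1115 genes in either direction. Of all genes 2.66% were higher at that p. No member was called by edgeR. DESeq2 called RPL39 alone, with 0.0272% of all genes called higher. The members' median difference was 0.27 and that of all genes 0.04 on the log2(CPM + 1) scale. In 63 members the fitted difference was above 0, as in 55.9% of all genes. In 13 members the 3 DMSO 4sU libraries all lay above the 3 without 4sU, beside 6.97% of all genes. Of the listed short-lived mRNAs 13 of 20 fell, and their median difference was -1.31. Of the 38 translation factors 1, EIF4A2, fell (limma, adjusted p = 0.0302), and no biogenesis factor, mitochondrial ribosomal protein gene or proteasome gene was called.

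The members' summed level varied within groups. Their reads made up 5.94%, 4.39% and 4.11% of all reads on genes without 4sU, 6.74%, 4.95% and 5.03% in DMSO 4sU, and 7.04% for IAA 4sU. The group means were 4.81% ± 0.986 without 4sU and 5.57% ± 1.01 in DMSO 4sU (SD, n = 3 each). Between libraries of the same replicate number the share was 0.800, 0.561 and 0.917 percentage points higher in DMSO 4sU. Replicate 1 was the highest in both groups. In no 4sU replicate 1 the median member stood 0.66 log2 units above the other libraries of its group, 60 of 70 were higher, and 20 were higher by at least 1 log2 unit, as were 2.67% of all genes. In DMSO 4sU replicate 1 the median member stood 0.56 above the others and 66 were higher. There 1 member was higher by at least 1 log2 unit, as were 0.924% of all genes. The medians of all genes in these comparisons were within 0.01 of 0.

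The first replicate also set the order of the differences. RPL27A, a 60S protein, had 353, 1027 and 845 CPM without and 1980, 1248 and 1215 CPM with DMSO and 4sU. RPL30 had 335, 686 and 716 CPM and then 1459, 810 and 1005 CPM. In both, no 4sU replicate 1 was far below the other unlabelled libraries, and the fitted differences of 1.06 ± 0.39 and 0.91 ± 0.34 log2 units did not pass the test (limma, adjusted p = 0.371 and 0.370).

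RPL39, which lines the exit tunnel, had 175, 162 and 147 CPM and then 376, 238 and 234 CPM, with no overlap and a difference of 0.73 ± 0.20 (limma, adjusted p = 0.152). RPS15 and RPS29 followed with 0.67 ± 0.31 and 0.54 ± 0.22. Without replicate 1, 4 of the 11034 genes were called higher and 473 lower. Of the 4, 2 were members, RPL11 by 0.54 and RPL39 by 0.49 log2 units. The unlabelled libraries of this contrast chose the members, so nothing is read from these calls.

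At the other end no 4sU replicate 1 was far above. RPL10 had 26.0, 5.76 and 3.74 CPM without and between 5.78 and 6.57 CPM with DMSO and 4sU. Its mean of 11.8 CPM without 4sU, which made it a member, rested largely on replicate 1. The low difference of RPL10 is therefore not independent of the choice of members. RPL37 had 352, 71.1 and 78.4 CPM and then 147, 111 and 94.2 CPM, and RPL12 had 114, 24.1 and 18.6 CPM and then 42.4, 34.8 and 30.7 CPM. Their fitted differences of -0.45, -0.16 and -0.10, like those of RPL4 (-0.16) and RPL7L1 (-0.14), did not pass the test. Taken by replicate number, the members' median difference was 0.19, 0.30 and 0.39, beside -0.00170, 0.0231 and 0.0384 over all genes. In these pairs 43, 66 and 70 of the 70 were higher in DMSO 4sU, beside 49.9%, 53.3% and 55.6% of all genes.

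**Figure D3:**
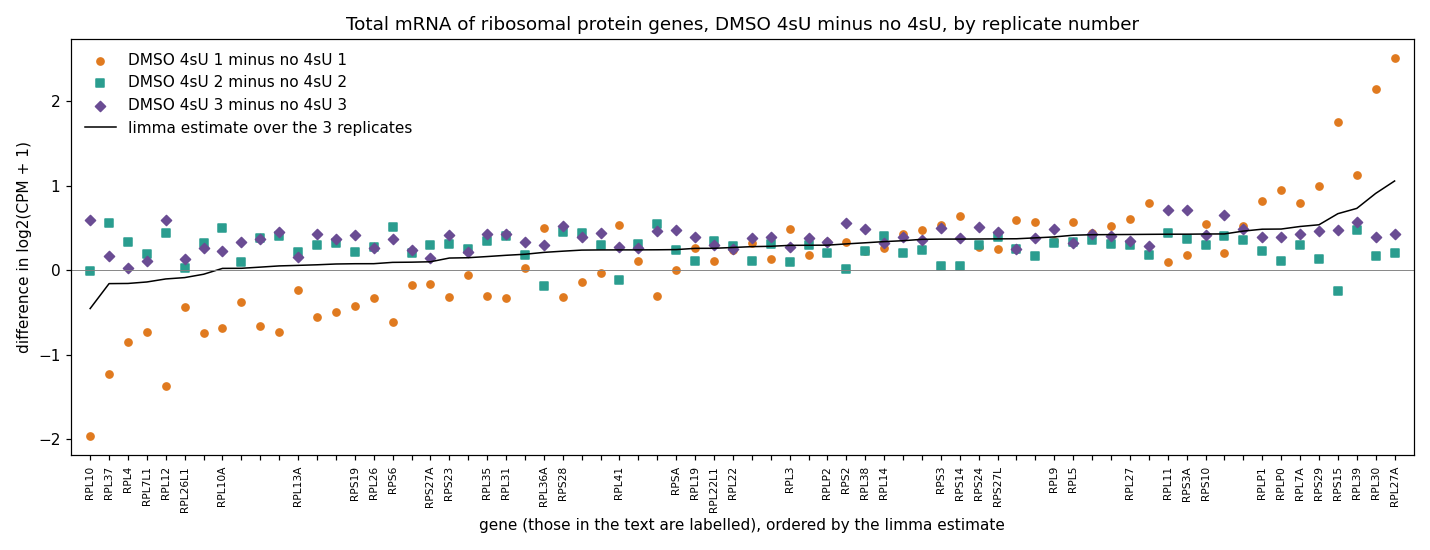
Difference in log2(CPM + 1) between the DMSO 4sU and the no 4sU library of the same replicate number (points) for the 70 members, ordered by the limma estimate (line). Replicate 1 spreads from -1.96 in RPL10 to 2.51 in RPL27A, while 66 points of replicate 2 and all 70 of replicate 3 lie above 0.

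IAA was set beside DMSO to ask what loss of JUN does, and with 1 IAA library the values are compared with the 3 DMSO 4sU libraries and not tested. The members' conversion rate in IAA 4sU, centred on each library's median, had a median difference of -0.14 from the DMSO 4sU mean on the log2(rate + 0.0005) scale, and that of all genes was -0.01. Each DMSO 4sU library set against its group's others gave -0.16, 0.12 and 0.09, so the IAA value was of the size seen between DMSO libraries. Counted as different were genes at least 0.5 log2 units from the DMSO mean and outside the DMSO range. In rate 1 member was above (15.1% of all genes) and 5 were below (16.0% of all genes). RPSA was above, with 0.255% in IAA 4sU against 0.244%, 0.0688% and 0.0760% in DMSO 4sU, above the range only narrowly. Below were RPL36A, with 0.0265% against 0.0517%, 0.256% and 0.0630%, RPS15, with 0.211% against 0.530%, 0.720% and 0.240%, and RPL22, with 0.0841% against 0.172%, 0.154% and 0.119%. RPS10 and RPL38, a regulator of Hox mRNA translation, had differences of -0.65 and -0.53. Without DMSO 4sU replicate 3, 11 members were counted in place of 6, with no share of all genes given for that setting.

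In total mRNA the IAA library had higher ribosomal protein levels than the DMSO 4sU mean, with a median difference of 0.42 log2 units over the members and -0.00120 over all genes. By the same limits 19 members were above (2.97% of all genes) and 1 below (1.56% of all genes), and 62 of 70 lay above the DMSO mean. Against each DMSO library the difference was unequal: the median member in IAA 4sU was 0.07 above DMSO 4sU replicate 1, 0.65 above replicate 2 and 0.59 above replicate 3. DMSO 4sU replicate 1 itself stood 0.56 above the other DMSO libraries, and IAA 4sU stood 0.61 above those same libraries. Without DMSO 4sU replicate 1 the median difference was 0.61 and 46 members were counted, without replicate 2 it was 0.32 with 9 members, and without replicate 3 it was 0.33 with 13. Without TMM scaling 35 members were counted. No share of all genes is given for these settings, so nothing is read from their counts. The part of the difference between DMSO 4sU replicate 1 and the other DMSO libraries in the IAA values was not tested.

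The largest IAA values in total mRNA followed that order. RPS3 had 1267 CPM in IAA 4sU and 1184, 443 and 594 CPM in DMSO 4sU. RPS10 had 157 CPM against 135, 62.3 and 75.2, and RPL41, the smallest ribosomal protein, had 257 CPM against 203, 104 and 135. RPL11 had 554 CPM against 459, 240 and 268, and RPS2 had 111 CPM against 97.5, 40.1 and 60.4. In each of these 5 genes DMSO 4sU replicate 1 was the highest DMSO library and lay next to the IAA value. RPL13A was the member below, with 571 CPM against 555, 991 and 843, where DMSO 4sU replicate 1 was again the nearest library, and it left the DMSO range only after TMM scaling.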

How the data were processed

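SLAM-Seq libraries were made with the QuantSeq 3′ mRNA-Seq FWD kit from alkylated RNA and sequenced as 75-base single reads. Per the methods, the authors processed the reads with the public nf-core pipeline for SLAM-Seq, and the labels name build hg19. The authors deposited 1 table of 56868 rows with, per library, a T-to-C conversion rate as a fraction, without background subtraction, and a CPM column. The deposited CPM is treated as a signal, since reads of an interval recur for each transcript that holds it, and it was a whole multiple of 1 read in 100.0% of values (tolerance 0.1), from which reads were recovered. RefSeq identifiers were matched to symbols for 97.7% of rows.

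Members, gene lists and tests were chosen with earlier results of these data known. Named genes were the members with the 6 highest and 6 lowest labelling, the 5 most abundant, the 3 nearest the limit on each side, paralogs with their parents, the 5 largest and smallest total differences, members past the IAA limits (up to 5 a direction) and 13 chosen by role; a few genes that this rule names are not reported here.

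Rates were tested with limma (3.58.1, R 4.3.3), with trended and robust variances, on log2(rate + 0.0005) for genes with a mean of 5 CPM or more without 4sU. Total mRNA was tested on log2(CPM + 1), scaled by TMM, for genes with a mean of 1 CPM or more over 6 libraries. p-values were Benjamini-Hochberg adjusted over all genes tested. edgeR (4.0.16) and DESeq2 (1.42.0) on recovered reads, other pseudocounts and filters, all intervals of a gene, the replicate block and leaving out replicates were alternatives. The rates carry no count of T positions, so they have no counting interval. The deviations of same-numbered libraries from their group means correlated by 0.39, 0.32 and 0.38 in total mRNA, so the numbers pair the libraries there, and by -0.000937, -0.0153 and -0.00803 in rate, where they do not. Figures were drawn with matplotlib (3.10.9).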

Additional observations from a re-analysis of the deposited data

How the results depend on the processing

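The count of 37 members whose rate rose was between 34 and 42 under another pseudocount, filter or choice of intervals. The 34 were of 68 members with no CPM filter (50.0%, beside 50.5% of all genes). The 42 were of 68 members with at least 200 reads on average (61.8%, beside 66.2% of all genes). With the replicate block 27 rose (38.6%, beside 52.9% of all genes), and 25 of the 37 remained. With 1 replicate left out of each group the count was between 12 and 19. Called in the full set and in each of these were 10 members, among them RPL10A, RPL12, RPL14, RPL22L1, RPL35, RPL41, RPS6, RPS23 and RPS27A. The count was 12, 15 and 19 without replicate 1, 2 and 3 (17.1%, 21.4% and 27.1%), in fits with fewer samples. Of all genes 33.1%, 39.5% and 38.8% rose in those fits. In total mRNA the members' median difference was between 0.22 and 0.31, and 0.27 with the replicate block, which called no member. The count of members called was between 0 and 2 with a replicate left out and 1 with DESeq2. The 2 came without replicate 1, where 0.0363% of all genes were called higher. DESeq2 called 0.0272% of all genes higher. The ratio of the members' median rate to that of all genes, 0.607, was 0.709 with no subtraction, 0.982 against the 338 genes at 200 CPM or more, and 0.917 against other genes of the members' interquartile CPM range, an alternative chosen after seeing the data, as was edgeR with the block. In the ratios of 0.982 and 0.917 only the reference genes were limited by level. The IAA rate count of 6 was 10 at a pseudocount of 0.0001, 10 with no centring, 2 at a pseudocount of 0.002, 2 at 1 log2 unit and between 9 and 11 with a DMSO replicate left out (11 without replicate 3). The IAA total mRNA count of 20 was 35 with no TMM scaling, 0 at 1 log2 unit and between 9 and 46 with a DMSO replicate left out. Among the IAA counts, shares of all genes are given only for those of 6 and 20. No paired analysis was possible for IAA because its columns hold 1 library.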
